A study of Mus musculus with 12 samples.

Results

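The subject is the glutamate receptor genes of the mouse and the genes of the auxiliary subunits that accompany them, compared between spinal motor neurons (SMNs) and the posterior horn. The 34 genes were chosen by name as members of the receptor families and were grouped into AMPA, kainate, NMDA, delta, metabotropic and auxiliary classes. Of these, 32 had a gene-level row naming a single gene, among 20261 named genes in all, and all 34 had exon-level probesets. The same arrays were read from a pair of tables, one with a linear intensity per gene and one with a log2 value per probeset, a short stretch of an exon that is measured on its own.

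The SMN group was 3 arrays of large anterior horn cells (diameter over 20 μm), taken by laser microdissection from the cervical cord of 6-week-old male C57Bl/6 mice (C57BL/6J in the methods). The posterior horn group was 3 arrays of dorsal horn areas cut from mice of the same strain, sex and age. The labels name no treatment and no mutation in either group. Material of several mice went into each group, and no source used here says whether an array stands for 1 mouse, so the p-values measure the spread between these arrays, which may be technical. The labels call the control the posterior column, and the names of its raw files say sensory neuron. Motor neurons were picked as single cell profiles whereas the posterior horn was taken as pieces of tissue with all the cells in them. In such bulk samples fewer cells of a type and less RNA per cell cannot be told apart.

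Glutamate is the main excitatory transmitter of the spinal cord. AMPA, kainate and NMDA receptors are tetramers with an ion channel that glutamate opens. AMPA receptors carry the fast synaptic current, NMDA receptors pass calcium when the membrane is depolarized, and kainate receptors act on both sides of the synapse. Delta receptors resemble them in structure and act mainly as synaptic organizers, metabotropic receptors signal through G proteins, and auxiliary subunits bind AMPA or kainate receptors and set their traffic and gating.

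The 250 bases before the transcription start of the 4 members below, all of them genes whose difference passed the test described next, give the promoter beside the largest rise (Grin3b), a pair of AMPA subunits that differed in opposite directions (Gria2 and Gria4) and a metabotropic receptor that was lower (Grm3). The sequences are from RefSeq on GRCm38.p6, run 5′ to 3′ on the strand of the gene, and have matches to the searched motifs in capitals.
Grin3b, chr10:79970474-79970723, plus strand: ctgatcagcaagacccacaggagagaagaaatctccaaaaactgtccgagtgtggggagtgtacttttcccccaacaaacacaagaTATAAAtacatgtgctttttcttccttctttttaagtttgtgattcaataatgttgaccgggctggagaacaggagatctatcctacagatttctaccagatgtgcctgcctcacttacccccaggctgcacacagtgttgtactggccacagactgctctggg
Gria2, chr3:80802836-80803085, minus strand: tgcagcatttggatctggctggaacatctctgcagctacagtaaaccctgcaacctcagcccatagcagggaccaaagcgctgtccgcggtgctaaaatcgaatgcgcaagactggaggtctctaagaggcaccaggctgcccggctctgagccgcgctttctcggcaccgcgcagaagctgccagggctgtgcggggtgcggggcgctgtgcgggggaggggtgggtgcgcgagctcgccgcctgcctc
Gria4, chr9:4796235-4796484, minus strand: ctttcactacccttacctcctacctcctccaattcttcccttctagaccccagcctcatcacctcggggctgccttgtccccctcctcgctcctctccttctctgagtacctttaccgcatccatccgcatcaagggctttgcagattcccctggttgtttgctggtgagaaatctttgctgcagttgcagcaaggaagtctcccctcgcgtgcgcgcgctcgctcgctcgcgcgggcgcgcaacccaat
Grm3, chr5:9725353-9725602, minus strand: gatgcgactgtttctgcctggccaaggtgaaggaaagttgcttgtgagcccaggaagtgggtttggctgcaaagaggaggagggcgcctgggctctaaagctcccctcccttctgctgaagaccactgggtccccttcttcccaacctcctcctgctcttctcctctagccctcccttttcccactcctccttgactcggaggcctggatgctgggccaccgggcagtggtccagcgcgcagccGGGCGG
Of the 34 genes, 23 had a promoter entry, with 28 start sites in all. The others were Gria1, Gria3, Grik1, Grin2a, Grin2b, Grin3a, Grid1, Grm4, Grm5, Cacng4 and Neto1. The capitals in Grin3b are a TATAAA match and those in Grm3 a GGGCGG match, and neither AMPA window had a match. Both strands were searched for 4 motifs that do not overlap one another in their letters. The GC box GGGCGG was in 14 of the 28 windows, against 32.7% of all 32851 windows of this length. The windows are not independent, since Grm7, Grm8, Cacng5 and Neto2 have more than 1 each. Those of Grm7 overlap and each hold a GC box. TATAAA was in 1 of the 28 (Grin3b), against 12.4% of all windows, and CAGCTG, an E-box, in 2, against 13.0%. The cyclic AMP response element TGACGTCA was in 0 of the 28, against 1.55% of all windows. These matches are a description of letters, and the arrays carry no reading of the promoters.

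Each gene was compared on log2(intensity + 1) with limma, with Benjamini-Hochberg adjustment over all transcript clusters (the array's gene-level units) that carry 1 gene name, and was called at an adjusted p under 0.05. Where a gene had several clusters the brightest was used. The arrays were on a common scale, with a median intensity of 33.1 to 33.8 in SMN arrays and 32.9 to 35.2 in posterior horn arrays. Of 6 motor neuron markers, 5 passed as higher in SMNs (Chat, Slc18a3, Slc5a7, Isl1 and Prph), with a summed intensity of 16897 to 17799 in SMN arrays and 375 to 482 in posterior horn arrays, while Mnx1 was at 161 ± 22.9 in SMNs and 229 ± 14 in the posterior horn (SD, n = 3 each) and did not pass. No marker of another cell type passed as higher in SMNs, and none was at 0 in any array. Dorsal horn neuron markers (5 of 7 passed as lower) summed to 1695 to 2028 in SMN arrays and 9301 to 9930 in posterior horn arrays, and inhibitory neuron markers (3 of 5) to 4731 to 5213 in SMN arrays and 13627 to 14819 in posterior horn arrays. Astrocyte markers (6 of 6 measured) summed to 3817 to 4009 in SMN arrays and 11912 to 12677 in posterior horn arrays. Oligodendrocyte markers (5 of 5 measured) summed to 10379 to 11264 in SMN arrays and 20875 to 21982 in posterior horn arrays, and those of their precursors (5 of 5) to 1121 to 1333 in SMN arrays and 2895 to 2972 in posterior horn arrays. Microglial markers (4 of 5) summed to 1518 to 1551 in SMN arrays and 3731 to 3996 in posterior horn arrays, and endothelial markers (4 of 4) to 499.8 to 593 in SMN arrays and 1718 to 2346 in posterior horn arrays. These levels differed between the same groups as the members, and their part in the results below was not tested.

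At the gene level 4 of the 32 members were higher in SMNs and 14 were lower. Among all 20261 genes 15.3% were called higher and 13.7% lower. The 4 higher genes, a share of the members near that of all genes, were Gria3, Gria4, Grin3b and Grid1. They were among the 15 measured subunits of ionotropic or delta receptors, of which 6 were lower. The median log2 fold change was -0.70 over the members and 0.03 over all genes. The 3 SMN arrays did not overlap the 3 posterior horn arrays for 21 of the 32, against 49.0% of all genes, and 3 of these 21 did not pass (Grin2c, Cacng2 and Cnih2). A difference of 2-fold or more was called higher for 1 of the 32 and lower for 11, against 6.92% higher and 7.86% lower among all genes. When the fit and the adjustment ran over every row of the table, named or not, 14 of the 18 calls were lost. Those of Grin3b, Gria1, Grm5 and Cacng4 were not.

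**Figure D1:**
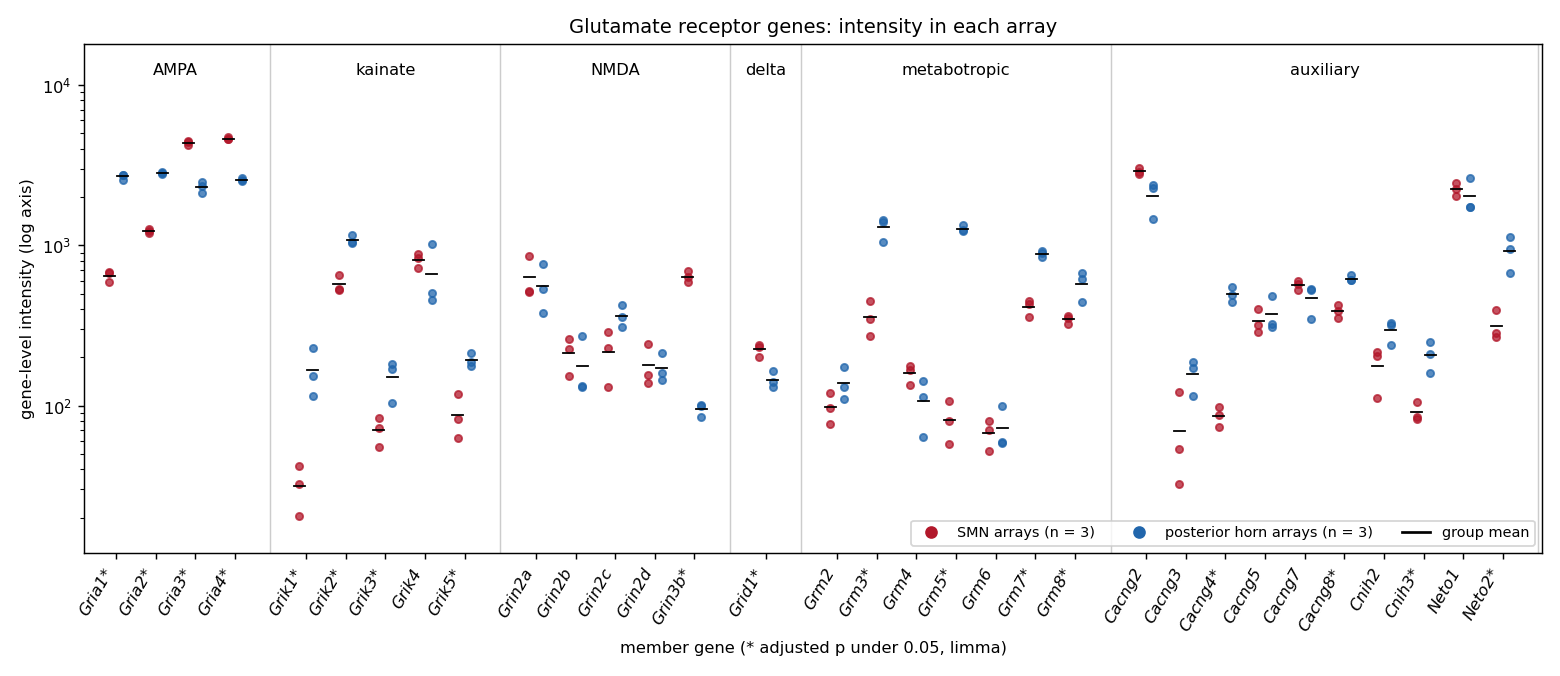
Gene-level intensity (log axis, arbitrary units) of the 32 measured members in each of 3 SMN arrays (left of each pair, red) and 3 posterior horn arrays (right, blue), with a bar at the group mean and an asterisk at genes that passed. Grin3b and Grm5 have groups that lie far apart, in opposite directions, whereas Grin2a, Grin2d and Grm6 have groups that overlap.

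All 4 AMPA subunits differed, in opposite pairs. Gria1 and Gria2, which encode the subunits GluA1 and GluA2, were lower in SMNs, and Gria3 and Gria4, which encode GluA3 and GluA4, were higher. GluA2 is the subunit that keeps calcium out of the channel once its transcript is edited, and receptors without it pass calcium.

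Gria1 (transcript cluster 6781201) had intensities of 677, 673 and 593 in SMN arrays 1 to 3, against 2739, 2569 and 2748 in posterior horn arrays 1 to 3. The groups were 4.15-fold apart with no overlap, the SMN level being the lower (log2 fold change -2.05 ± 0.14, SE, limma adjusted p = 0.000839). Gria2 (6906261) had 1271, 1185 and 1231 in SMN arrays and 2847, 2840.2 and 2785 in posterior horn arrays. It was 2.30-fold lower in SMNs (-1.20 ± 0.13, limma adjusted p = 0.00305), and within each group its arrays lay close together. Gria3 (7010835) stood at 4438, 4407 and 4219.7 in SMN arrays and 2327, 2109.5 and 2465 in posterior horn arrays. The SMN arrays were all the higher ones, by 1.90-fold on average (0.92 ± 0.14, limma adjusted p = 0.00762). Gria4 (6993204) was close to it in size of change, with 4741, 4581 and 4572 in SMN arrays and 2633, 2517 and 2558 in posterior horn arrays, a 1.80-fold rise (0.85 ± 0.13, limma adjusted p = 0.00789). The 95% intervals of the log2 fold changes were -2.40 to -1.71 for Gria1 and -1.52 to -0.88 for Gria2, and 0.58 to 1.27 for Gria3 and 0.53 to 1.17 for Gria4. Among 17 alternative settings, which include each array left out in turn, the call for Gria1 was lost in 0. Those for Gria2, Gria3 and Gria4 were lost in 1, the fit and adjustment over every row.

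Of the 5 kainate subunits 4 were lower in SMNs, beside 13.7% of all genes, and Grik4 did not pass. Their median log2 fold change was -1.08. Grik1, Grik2 and Grik3 encode the subunits that form channels on their own, GluK1 to GluK3, and Grik4 and Grik5 encode GluK4 and GluK5, which need one of those as a partner.

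Grik1 (6847659) had the largest change of the class, with 20.5, 32.4 and 42.2 in SMN arrays, against 115, 229 and 153 in posterior horn arrays. The SMN arrays were 5.10-fold lower (-2.35 ± 0.35, limma adjusted p = 0.00700), and although the arrays spread widely within each group, the groups did not overlap. Grik3 (6917112) had 72.3, 55.3 and 83.2 in SMN arrays and 104, 169 and 181 in posterior horn arrays. The groups were 2.11-fold apart with the SMN arrays lower (-1.08 ± 0.28, limma adjusted p = 0.0342), but the call was lost in 8 of the 17 alternatives, among them each array left out in turn except posterior horn array 1 (limma adjusted p of 0.0632 to 0.103). Grik5 (6965906) had 82.0, 63.2 and 118 in SMN arrays and 187, 177 and 212 in posterior horn arrays. It was 2.24-fold lower in SMNs (-1.17 ± 0.25, limma adjusted p = 0.0204), a call lost in 6 of the 17, among them without SMN array 1 (limma adjusted p = 0.0707), SMN array 2 (0.0568) or posterior horn array 3 (0.0574). Grik2 averaged 571 ± 70.2 in SMNs and 1079 ± 73.3 in the posterior horn (SD, n = 3 each) and was 1.89-fold lower (limma adjusted p = 0.0107).

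Grik4 (6994946) had 829, 725 and 884 in SMN arrays and 500.4, 454 and 1018 in posterior horn arrays. Posterior horn array 3 was the highest of all 6, so the groups overlapped, and the log2 fold change was 0.40 with an interval of -0.40 to 1.20 (limma adjusted p = 0.412). Without that array the adjusted p was 0.0374 by limma and the log2 fold change 0.76. A second, dimmer transcript cluster of Grik4 (6994947) had 353, 287 and 247 in SMN arrays and 186, 155 and 145 in posterior horn arrays, with no overlap, and was higher in SMNs (0.85 ± 0.20, limma adjusted p = 0.0252). At the exon level 0 of 24 Grik4 probesets passed, with 4 at an unadjusted limma p under 0.05 and log2 fold changes between -0.87 and 1.41. The median log2 value over these probesets, taken in each array, differed by 0.41 (limma adjusted p = 0.426). The second cluster of Grik3 did not pass (-0.79, limma adjusted p = 0.166).

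Of the 7 NMDA subunit genes 5 had a gene-level row of their own. Of these 1 differed and was higher, beside 15.3% of all genes called higher. Grin3b encodes GluN3B, a glycine-binding subunit known for its expression in motor neurons of the spinal cord and brainstem, and receptors that contain it pass less calcium. It was the member with the largest rise and the smallest p.

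Grin3b (6769175) had 688, 589 and 634 in SMN arrays, against 100.4, 85.0 and 99.5 in posterior horn arrays. The lowest SMN array was well above the highest posterior horn array, and the groups were 6.65-fold apart (log2 fold change 2.73 ± 0.15, interval 2.36 to 3.11, limma adjusted p = 0.00046). The genes of the GluN2 subunits, which bind glutamate and set the kinetics of the channel, did not pass. Grin2d (6967014) had the largest p, with 155, 243 and 139 in SMN arrays and 144, 214 and 160 in posterior horn arrays. Those groups overlapped fully (0.03 ± 0.27, interval -0.63 to 0.69, limma adjusted p = 0.953). Grin2a and Grin2b had log2 fold changes of 0.19 and 0.31 with intervals of -0.63 to 1.00 and -0.56 to 1.2. With 3 arrays a group the values allow any difference inside these intervals. Grin2c averaged 216 ± 79.9 in SMNs and 364 ± 59.6 in the posterior horn (SD, n = 3 each), and its arrays did not overlap, but the difference did not pass (-0.81, limma adjusted p = 0.113).

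Grin1, which encodes the subunit found in every NMDA receptor, and Grin3a, which encodes GluN3A, could be read only from their probesets. For Grin1 0 of 30 probesets passed, with log2 fold changes between -1.36 and 1.00 and 4 at an unadjusted limma p under 0.05, and the median of those fold changes was -0.03. When the median log2 value over the probesets was taken in each array first and the groups were then compared, the difference was -0.40 ± 0.19 (limma adjusted p = 0.209). For Grin3a 0 of 23 passed, and 0 were at an unadjusted limma p under 0.05. The median of its probeset log2 fold changes was 0.09, and its per-array median differed by 0.38 ± 0.30 (limma adjusted p = 0.452). A gene-level row that Grin3a shares with Ppp3r2 had 881, 415 and 858 in SMN arrays and 565, 711 and 542 in posterior horn arrays, with overlapping groups, and it cannot be assigned to either gene.

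Grid1 encodes GluD1, a delta receptor that binds cerebellins and links the sides of the synapse, and is the delta receptor gene among the members. Grid1 (6818249) had 239, 233 and 199.9 in SMN arrays and 131, 164 and 139 in posterior horn arrays. All SMN arrays were above all posterior horn arrays, by 1.54-fold (0.63 ± 0.17, limma adjusted p = 0.0376). The call was lost in 9 of the 17 alternatives, among them each array left out in turn except posterior horn array 2 (limma adjusted p of 0.0708 to 0.120).

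Among the 7 metabotropic receptor genes 4 were lower in SMNs, 3 did not pass and none was higher. Among all genes 13.7% were lower and 15.3% higher, so none higher among so few genes is near that share. The median log2 fold change of the class was -0.72. Grm5 encodes mGluR5, a group I receptor coupled to phospholipase C that is present on neurons and astrocytes. Grm2 and Grm3 encode the group II receptors and Grm4, Grm6, Grm7 and Grm8 the group III receptors, all of which lower cyclic AMP.

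Grm5 (6962363) had the largest difference of all members, with 57.8, 80.1 and 106 in SMN arrays and 1224, 1239.5 and 1332 in posterior horn arrays. The SMN arrays were 15.8-fold lower (log2 fold change -3.98 ± 0.24, interval -4.57 to -3.40, limma adjusted p = 0.000543) and lay nowhere near the posterior horn arrays. A second, dim cluster of Grm5 (6962365) had 24.4, 13.1 and 18.7 in SMN arrays and 104, 23.5 and 40.9 in posterior horn arrays and did not pass (-1.31, limma adjusted p = 0.127). Grm3 (6936140), whose receptor is also known from astrocytes, had 447, 273 and 346 in SMN arrays and 1047, 1400.2 and 1435 in posterior horn arrays. It was 3.68-fold lower in SMNs with no overlap (-1.88 ± 0.24, limma adjusted p = 0.00446).

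Grm7 (6948964), whose receptor sits at presynaptic active zones, had 446, 356 and 428 in SMN arrays and 848, 923 and 892 in posterior horn arrays. It was 2.17-fold lower in SMNs (-1.12 ± 0.16, limma adjusted p = 0.00564). Grm8 averaged 346 ± 21.0 in SMNs and 578 ± 118 in the posterior horn (SD, n = 3 each), a 1.65-fold lower level (limma adjusted p = 0.0437) whose call was lost in 9 of the 17 alternatives, among them each array left out in turn except posterior horn array 1 (limma adjusted p of 0.0978 to 0.130). Grm6 (6780816), known from retinal bipolar cells, had 70.9, 79.7 and 52.0 in SMN arrays and 58.2, 99.6 and 59.0 in posterior horn arrays, and the groups overlapped (-0.07 ± 0.28, limma adjusted p = 0.873). Grm2 and Grm4 had log2 fold changes of -0.49 and 0.64 that did not pass, with intervals of -1.10 to 0.12 and -0.13 to 1.41. The dimmer second clusters of Grm2 (-0.12) and Grm7 (-0.56) did not pass either.

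Of the 10 auxiliary subunit genes 4 were lower in SMNs, 6 did not pass and none was higher, with a median log2 fold change of -0.73. They divide into the transmembrane AMPA receptor regulatory proteins (Cacng2, Cacng3, Cacng4, Cacng5, Cacng7 and Cacng8), the cornichons that help AMPA receptors to leave the endoplasmic reticulum (Cnih2 and Cnih3) and the Neto proteins that bind kainate receptors (Neto1 and Neto2).

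Cacng4 (6792024), which encodes γ-4, had 73.9, 87.6 and 97.8 in SMN arrays and 446, 488 and 546 in posterior horn arrays. It was 5.67-fold lower in SMNs with no overlap (-2.50 ± 0.17, limma adjusted p = 0.000842). Neto2 (6983950) had 269, 392 and 284 in SMN arrays and 1125, 951 and 674 in posterior horn arrays. It was 2.88-fold lower (-1.53 ± 0.26, limma adjusted p = 0.00964), whereas its paralog Neto1 did not pass, with 2237 ± 198 in SMNs and 2037 ± 525 in the posterior horn (SD, n = 3 each). The difference between the paralogs in fold change was not tested. Cnih3 (6755757) had 82.4, 85.2 and 106 in SMN arrays and 159.9, 211 and 248 in posterior horn arrays. It was 2.23-fold lower in SMNs (-1.16 ± 0.22, limma adjusted p = 0.0133), a call lost without SMN array 1 (limma adjusted p = 0.0546) and without SMN array 2 (0.0537).

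Cacng8, which encodes γ-8, averaged 389 ± 34.2 in SMNs and 619 ± 25.9 in the posterior horn (SD, n = 3 each), 1.59-fold lower (limma adjusted p = 0.0211). That call was lost without any 1 of the SMN arrays or posterior horn array 3 (limma adjusted p of 0.0501 to 0.0837), and the median over its probesets did not show it. The per-array median over its 4 probesets differed by 0.15 on the log2 scale (limma adjusted p = 0.854), and the median of their own log2 fold changes was 0.26. The brightest of them, 5322750 (mean log2 value 9.70 over all arrays), was at -0.72. The others, with mean log2 values of 6.06 to 6.40, lay between 0.15 and 0.48. Cacng2 encodes stargazin, the founding member of the family, and stood at 2890.4 ± 132 in SMNs and 2043 ± 500 in the posterior horn (SD, n = 3 each). Its arrays did not overlap, but the difference did not pass (0.53, interval -0.01 to 1.07, limma adjusted p = 0.130). Cacng5 (6792030) had 398, 319 and 288 in SMN arrays and 325, 483 and 311 in posterior horn arrays. Those groups overlapped (-0.14 ± 0.24, limma adjusted p = 0.701). For Cacng3 the brightest cluster did not pass (-1.36, limma adjusted p = 0.0872), with 32.2, 53.9 and 121 in SMN arrays and 172, 188 and 116 in posterior horn arrays. SMN array 3 overlapped the posterior horn, and without it the difference passed (-1.87, limma adjusted p = 0.0300). Its second cluster (6964046), with 40.1, 45.5 and 56.7 in SMN arrays and 135, 248 and 182 in posterior horn arrays, had no overlap and was lower in SMNs (-1.94 ± 0.27, limma adjusted p = 0.00539). Cnih2 and Cacng7 did not pass, with log2 fold changes of -0.78 and 0.29.

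**Figure D2:**
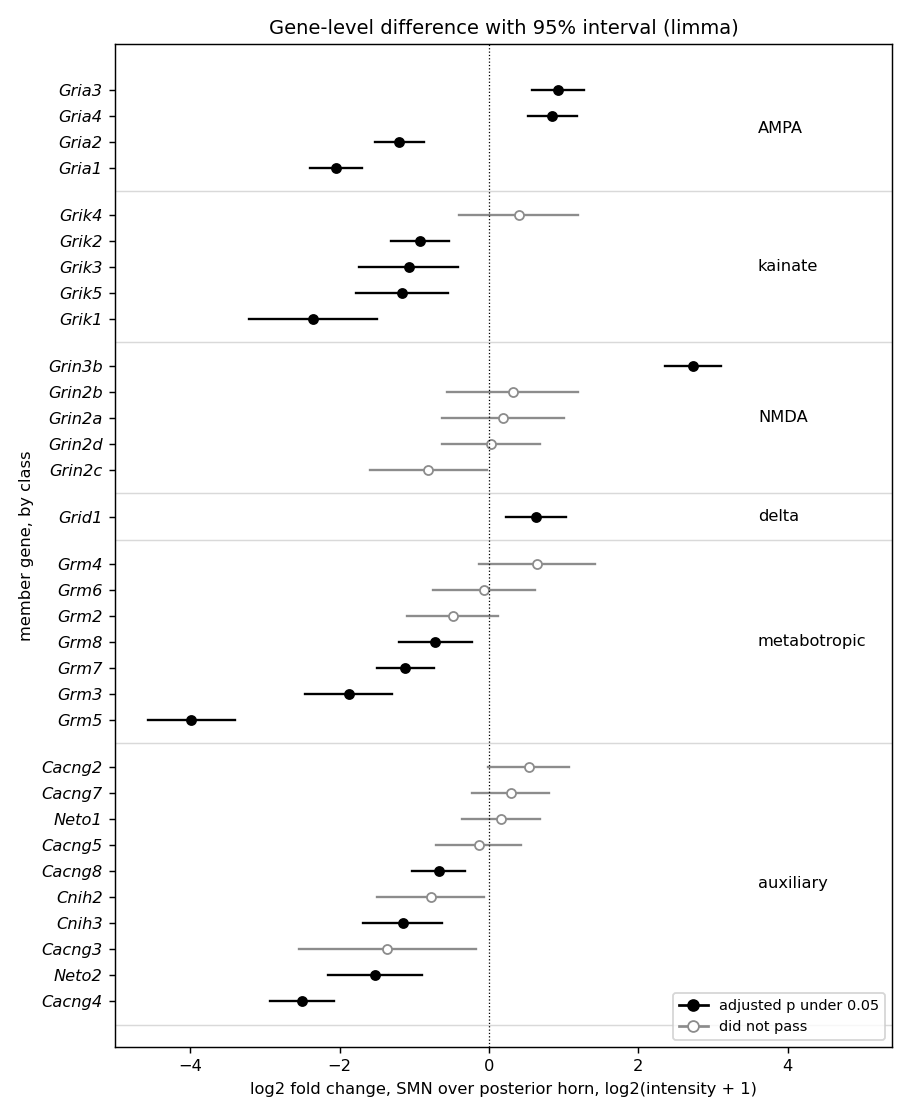
Log2 fold change of SMNs over the posterior horn (points) with 95% intervals (bars) for the 32 measured members, by class, filled where the limma adjusted p was under 0.05. The 4 filled points to the right of 0 are Grin3b, Gria3, Gria4 and Grid1, and the kainate, metabotropic and auxiliary classes have filled points only to its left, down to -3.98 for Grm5.

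The probesets show whether a difference ran along a gene. Over the 642 probesets of the 34 genes 7 were higher in SMNs and 56 were lower by limma, with adjustment over all probesets of the table. In that same fit 1.44% of all 319246 probesets of named genes were called higher and 1.48% lower. The member counts moved with the fit. Without any 1 array they were 2 to 4 higher and 12 to 27 lower, and with the replicate block 0 and 8. With fit and adjustment over the probesets of 1 symbol they were 24 and 102. No share over all probesets was taken at these other settings, so their counts cannot be set beside 1.44% and 1.48%. In the main fit all calls within a member ran one way, and where the gene level had passed they ran in its direction. Most lower calls came from a pair of genes. Gria1 had 20 of 24 probesets called lower, with all 24 at a log2 fold change between -2.62 and -0.99. Grm5 had 15 of 18 called lower, with log2 fold changes down to -4.50.

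Fewer probesets passed for the other members. Gria2 had 4 of 34 called lower, Grik3 4 of 22, Grm3 3 of 12, Cnih3 3 of 9 and Neto2 3 of 14, and Grik1, Grik5, Grm7 and Cacng3 had 1 each. Gria3 had 1 of 34 called higher and Gria4 1 of 30, although 29 of the Gria3 and 22 of the Gria4 probesets were at an unadjusted limma p under 0.05. Cacng4, Grik2, Grm8, Cacng8 and Grid1, which had passed at the gene level, had 0 probesets called, with 3 of 7, 13 of 32, 12 of 24, 1 of 4 and 4 of 18 at an unadjusted limma p under 0.05. In Grin2d, whose gene-level groups overlapped, probeset 5014186 was at 6.25, 6.43 and 6.59 (log2) in SMN arrays and 4.59, 4.69 and 4.99 in posterior horn arrays and was called higher (1.67 ± 0.22, limma adjusted p = 0.0230), and the other 29 did not pass.

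**Figure D3:**
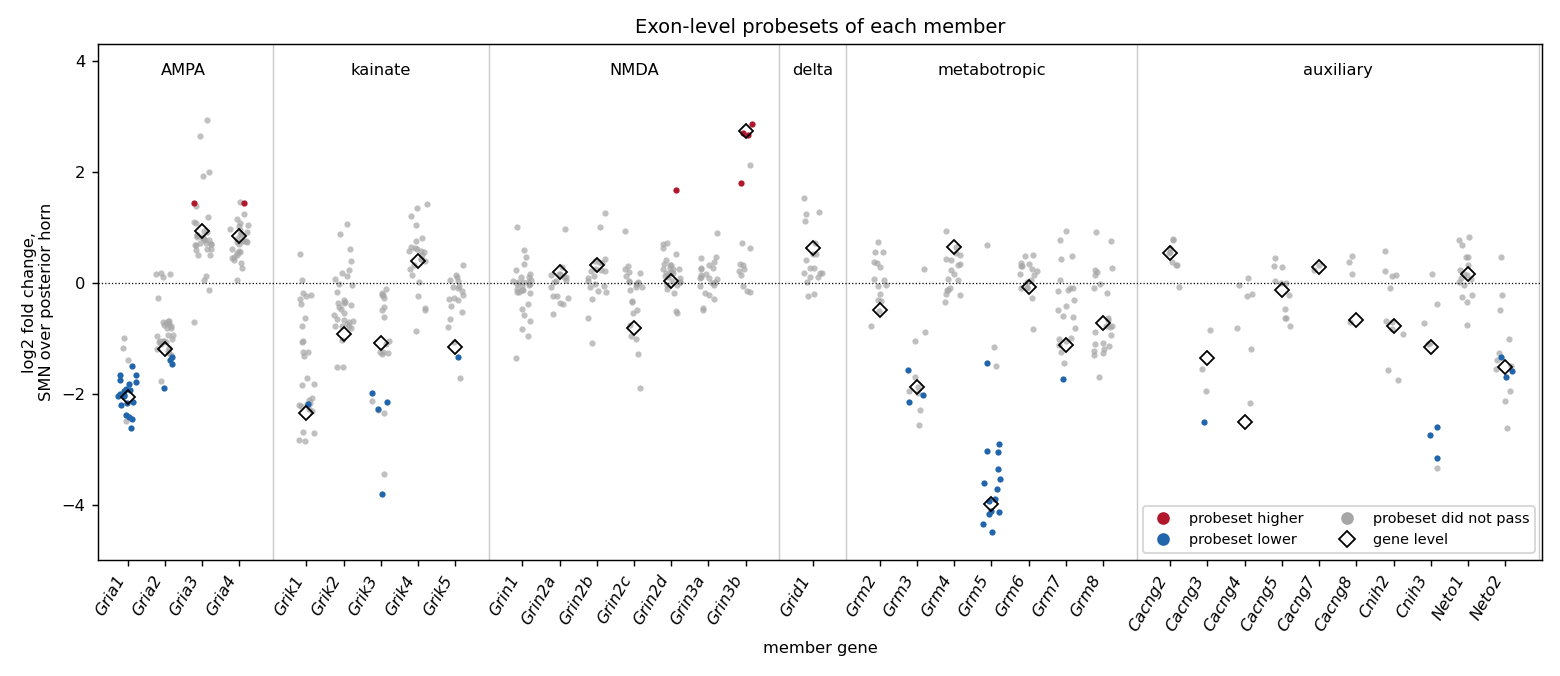
Log2 fold change of SMNs over the posterior horn for each of the 642 exon-level probesets (points) of the 34 members, red where called higher, blue where called lower and grey where not passed, with the gene-level value as a diamond. The blue points gather in Gria1 and Grm5, and the Grin3b points divide into a group between -0.17 and 0.71 and a group between 1.79 and 2.86.

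The median log2 value over the probesets of a gene, taken in each array and then compared between the groups, gave a second summary of each member. By limma 3 members were higher on it and 11 were lower, against 9.86% higher and 6.91% lower among the 22345 genes with such a median. The higher members were Gria3 (0.77), Gria4 (0.79) and Grin3b (0.88). The median for Grin3b was smaller than its gene-level value of 2.73. Grid1 was at 0.22 and did not pass (limma adjusted p = 0.403). Of the lower members Gria1 was at -2.03, Gria2 at -1.15, Grik1 at -1.86, Grm3 at -1.93, Grm5 at -2.91 and Cacng4 at -1.01. For Cacng4 the gene-level value was -2.50, and the median of the log2 fold changes of its 7 probesets was -0.24. Those fold changes lay between -2.16 and 0.084, so no probeset showed a fall as large as the gene-level value. For Grm5 the gene-level value was -3.98. Grik5 was at -0.21 by this summary and did not pass (limma adjusted p = 0.420), and neither did Grik2 (-0.47, limma adjusted p = 0.0925) or Grm7 (-0.48, limma adjusted p = 0.0709).

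Whether the probesets of a gene differed from each other in fold change was asked with limma's diffSplice. It passed 14 of the 34 members, against 21.4% of the 21412 genes tested. They were Gria1, Gria2, Gria3, Grik1, Grik2, Grik3, Grik5, Grin3b, Grm3, Grm5, Grm8, Cacng4, Cnih3 and Neto2. Each of them had a gene-level call. The test does not tell an isoform from a weak probeset.

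Grin3b and Grm5 had the smallest p by diffSplice, with adjusted p = 1.64e-12 and 1.07e-14. In Grin3b, whose 15 probesets are described here after their values were seen, probesets 5377351, 5016919, 4437873 and 5207125 were called higher, with log2 fold changes of 2.86, 2.70, 2.65 and 1.79, and 4541518 was at 2.12 without passing (limma adjusted p = 0.128). Probeset 5377351 was at 7.64, 7.26 and 8.23 (log2) in SMN arrays and 5.10, 4.87 and 4.57 in posterior horn arrays, with no overlap. The other 10 probesets had log2 fold changes between -0.17 and 0.71. Their mean log2 values over all arrays ran from 4.39 to 7.81, and those of the probesets named before them from 4.45 to 9.05. One of the brightest of these 10, 5538124, was at 7.81, 7.92 and 7.99 in SMN arrays and 7.68, 7.63 and 7.66 in posterior horn arrays, a difference of 0.25. The arrays' genome build is not given in the sources used here, so no probeset is placed on an exon.

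In Grm5, 14 probesets passed with log2 fold changes between -4.50 and -2.90, and 4785369 passed at -1.45. Probeset 5200264, one of the brighter ones, was at 6.89, 7.09 and 6.73 (log2) in SMN arrays and 11.1, 10.8 and 10.6 in posterior horn arrays. The 3 that did not pass were 5186165 at -1.50, 4868335 at -1.15 and 5052947 at 0.68, and 5052947 was dim in both groups, at 2.84 in SMNs and 2.15 in the posterior horn on average.

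Gria2 had 5 probesets that differed from the rest of the gene by diffSplice. Probeset 5500303 was at 11.4, 11.3 and 11.3 (log2) in SMN arrays and 11.0, 11.1 and 11.3 in posterior horn arrays, so its groups overlapped (0.17 ± 0.20) where the per-array median of the gene differed by -1.15 (diffSplice adjusted p = 0.0160). Probeset 5345010 was the opposite case, with 6.00, 5.56 and 5.46 in SMN arrays and 7.57, 7.71 and 7.42 in posterior horn arrays (-1.89 ± 0.23, diffSplice adjusted p = 0.0339). The other 3 (4395951, 4429930 and 5335767) had log2 fold changes between 0.10 and 0.16. They were dimmer, with mean log2 values over all arrays of 5.59 to 6.81, beside 11.2 for 5500303. In Cnih3 probeset 5561588 was at 8.07, 7.88 and 8.39 in SMN arrays and 7.57, 8.18 and 8.11 in posterior horn arrays, with overlapping groups, while 3 others were called lower, with log2 fold changes down to -3.15.

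**Figure D4:**
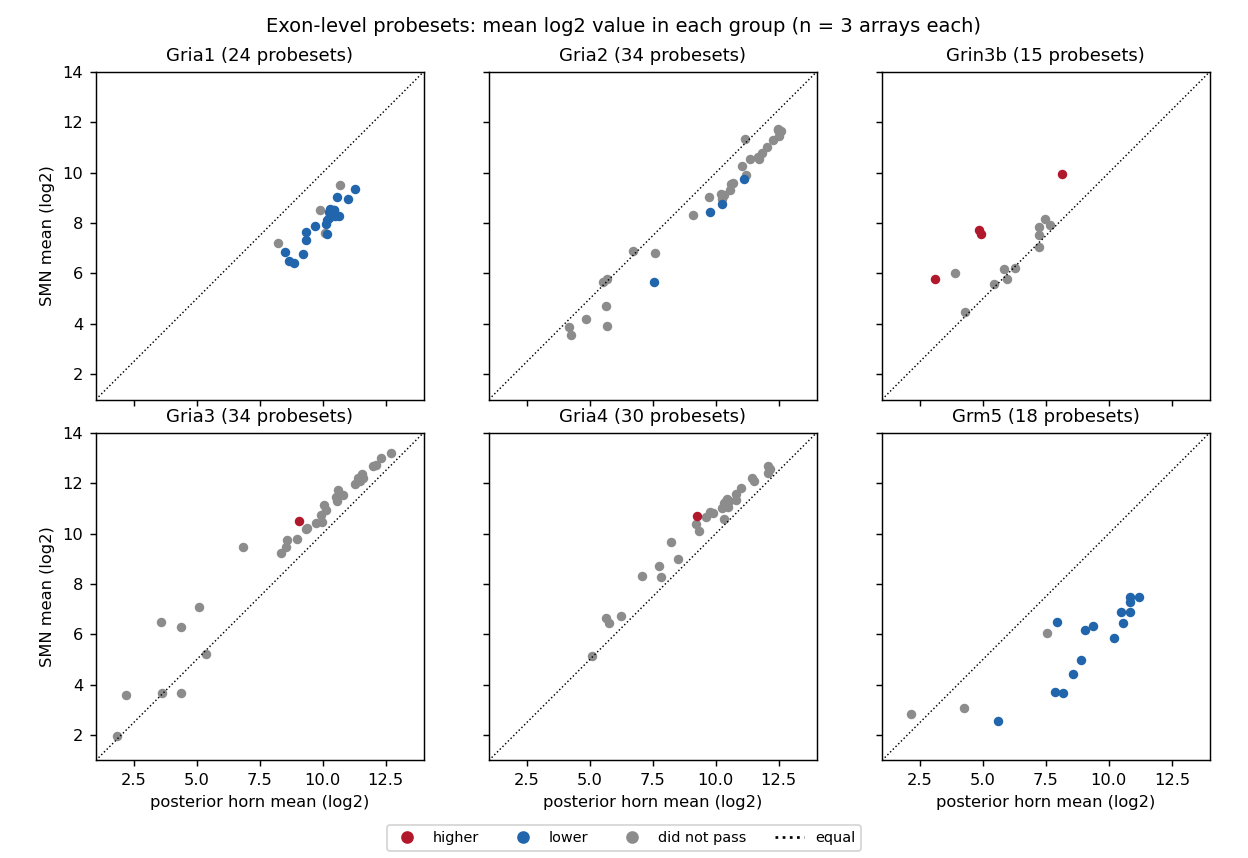
Mean log2 value of each probeset in SMNs (vertical axis) against the posterior horn (horizontal axis), n = 3 arrays each, for 6 members, with a dotted line of equal values. The Gria1 points and nearly all Grm5 points lie below the line, the Gria3 and Gria4 points lie mostly above it, and 10 of the 15 Grin3b points lie near it.

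The proteins that hold glutamate receptors at the synapse were read from a list of 34 scaffold and signalling genes, 30 of them measured. In SMNs 4 were higher and 12 were lower, and 14 did not pass, with a median log2 fold change of -0.57, beside 15.3% higher, 13.7% lower and a median of 0.03 over all genes. The 4 higher genes numbered 1 without SMN array 1, 2 without SMN array 2 or 3 and 1 with the replicate block. They numbered 0 with fit and adjustment over every row. Camk2a, the α subunit of the calcium/calmodulin-dependent kinase that phosphorylates AMPA receptors, was at 248, 309.7 and 232 in SMN arrays and 5003, 4907 and 5060.0 in posterior horn arrays. It was 19.0-fold lower in SMNs (-4.25 ± 0.17, limma adjusted p = 0.000220), and no array of a group came near the other group. Shank1, a scaffold of the postsynaptic density, was next, with 924 ± 32.7 in SMNs and 3070.3 ± 249 in the posterior horn (SD, n = 3 each, -1.73, limma adjusted p = 0.00128). Gripap1, which binds the AMPA receptor adaptor GRIP1, averaged 1121 ± 58.5 in SMNs and 517 ± 64.3 in the posterior horn (1.12, limma adjusted p = 0.00586). Dlgap2, a postsynaptic scaffold, averaged 493 ± 86.3 in SMNs and 245 ± 47.9 in the posterior horn (1.01, limma adjusted p = 0.0225). The Dlgap2 call was lost with SMN array 1, SMN array 2 or the second posterior horn array left out (limma adjusted p of 0.0572 to 0.0794), and its per-array probeset median differed by -0.0017. For Gripap1 that median differed by 0.11 (limma adjusted p = 0.786). The lower genes included all 4 measured members of the PSD-95 family (Dlg1, Dlg2, Dlg3 and Dlg4), named after their values were seen, with log2 fold changes between -1.03 and -0.81.

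Genes for the assembly of the receptors and for their extracellular partners made up the second list, with 28 of 31 measured. In SMNs 3 were higher and 10 were lower, and 15 did not pass, with a median log2 fold change of -0.20, to be read beside the same shares and median over all genes. The 3 higher genes became 9 with a variance trend, 6 with a floor of 16 or without the dimmest rows and 5 without posterior horn array 1. They became 0 with fit and adjustment over every row. C1ql3, a secreted synaptic organizer of the complement C1q family, had 16.7, 75.4 and 56.3 in SMN arrays and 1505, 985 and 1255 in posterior horn arrays. It was lower in SMNs with no overlap (-4.85 ± 0.55, limma adjusted p = 0.00325). SMN array 1 was far below the other SMN arrays, and without it the log2 fold change was -4.22 (limma adjusted p = 0.00413). The per-array probeset median of C1ql3 differed by -1.94. Its dimmer clusters were at -1.01 (6875098, limma adjusted p = 0.0252) and 0.24 (6875097, limma adjusted p = 0.551). Shisa9, which encodes the AMPA receptor auxiliary protein CKAMP44, averaged 218 ± 59.7 in SMNs and 2091 ± 213 in the posterior horn (SD, n = 3 each, -3.29, limma adjusted p = 0.000959). Abhd6, a lipid hydrolase that binds AMPA receptors, was higher, with 907 ± 111 in SMNs and 356 ± 82.1 in the posterior horn (1.37, limma adjusted p = 0.00893). Of its dimmer clusters 6816706 was also higher (1.04, limma adjusted p = 0.0195). Clusters 6816704 (0.68, limma adjusted p = 0.147) and 6816705 (-0.08, limma adjusted p = 0.961) did not pass. Porcn, an acyltransferase of Wnt proteins that is also found in AMPA receptor complexes, averaged 649 ± 32.7 in SMNs and 297 ± 72.9 in the posterior horn (1.15, limma adjusted p = 0.0116), and its per-array probeset median did not pass (0.41, limma adjusted p = 0.117). Cbln1, a cerebellin that binds delta receptors from outside, averaged 1611 ± 115 in SMNs and 4242 ± 153 in the posterior horn (-1.40, limma adjusted p = 0.00233). It was chosen after its values were seen, as a ligand of the delta receptor gene above. The other cerebellins of the list, Cbln2 and Cbln4, had positive log2 fold changes that did not pass (0.97 and 0.53, limma adjusted p = 0.199 and 0.193). Adarb1, the enzyme that edits the Gria2 transcript, was also chosen after its values were seen. It averaged 1766 ± 110 in SMNs and 2262 ± 345 in the posterior horn and did not pass (-0.35, limma adjusted p = 0.190).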

How the data were processed

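Gene expression was measured on Affymetrix Mouse Exon 1.0 ST arrays, 3 of SMNs and 3 of the posterior horn. The authors deposited linear intensity values per gene and log2 values per probeset for the same arrays, made with Affymetrix Expression Console 1.3.1.187 per the labels. How values were summarized, and on which genome build, is not given in the sources used here. Detection calls were not used, so a low intensity does not show that a transcript is absent. Rows were named from platform annotation, and all 32 measured members matched RefSeq by Entrez identifier. Neither table was normalized again. Groups were compared by two-sided moderated tests in limma 3.58.1 (R 4.3.3) with Benjamini-Hochberg adjustment, at the gene level on log2(intensity + 1), which understates the change of dim genes, and with diffSplice for unequal probesets. With 3 arrays in each group the smallest p of an exact permutation test is 0.1, the p-values of limma draw on the variance of all genes, and precision is limited by how few arrays there are. The tests were tested on simulated data. Promoter windows are the 250 bases before each RefSeq start.

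The members and lists were chosen with earlier results of these data known. Values in every array were given for members that passed with a log2 fold change of at least 1 in size, for those with the largest and the smallest p of each class and for classes of under 3 members. From each of the 2 lists the 2 largest rises and the 2 largest falls were named. Alternatives were other normalizations, a filter on dim rows, the rows tested, 16 as a floor or as an addend, a variance trend, the methods' t-test, a replicate block, the exon-level median and each array left out in turn.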

Additional observations from a re-analysis of the deposited data

How the results depend on the processing

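Over 17 alternatives for each of the 32 measured members, 476 of 544 gene-level results kept their direction and their side of the threshold, 51 kept the direction and were no longer called, 5 became called (Cacng3 in 3, Cacng2 and Grik4 in 1 each) and 12 changed direction. Fit and adjustment over all rows of the table left 1 member higher and 3 lower. It left 0 genes of the scaffold list higher and 3 lower, and 0 genes of the assembly list higher and 4 lower. That setting tests many more rows by construction, and its variance estimates draw on all of them. On the scaffold list 7 were higher without the dimmest 25% of rows, 7 with a variance trend and robust estimation, and 1 higher and 7 lower by the exon-level median. On the assembly list the higher genes numbered 6 without the dimmest rows, 5 with 1 cluster per symbol, 5 with 16 added, 6 with a floor of 16 and 9 with a variance trend. The cause of these changes was not tested.

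With each array left out in turn the members numbered 3 to 4 higher and 9 to 14 lower, the scaffold list 1 to 5 higher and 8 to 13 lower, and the assembly list 2 to 5 higher and 8 to 9 lower. Member probesets then numbered 2 to 4 higher and 12 to 27 lower, and members with unequal probesets 10 to 16. With fit and adjustment over probesets of 1 symbol 24 member probesets were higher and 102 lower, and with the dimmer 50% left out 19 were higher and 92 lower. The shares over all probesets were not taken at these settings.

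The replicate numbers are shared by the groups but did not pair the arrays (correlation of same-numbered deviations 0.03, -0.01 and 0.02). With the replicate block 3 members were higher and 11 lower, the scaffold list had 1 higher, and 0 member probesets were higher and 8 lower by limma.

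Among the members the changes of direction were in genes that did not pass, apart from Cacng8 (0.15 by the exon-level median). By that median Dlgap2 of the scaffold list, called higher at the gene level, was at -0.0017 (0.85 to 1.16 at the gene level with each array left out in turn). By the same median Grin2a was at -0.015, Grin2b at -0.10 and Grm6 at 0.070. With each array left out in turn Grin2a lay between -0.064 and 0.45, Grin2d between -0.21 and 0.19, Grm6 between -0.20 and 0.18 and Cacng5 between -0.27 and 0.062, all on the log2 scale. The number of arrays, 3 in each group, limits the precision of every value.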
